A study of Mus musculus with 250 samples.

Results

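Lcn2 encodes lipocalin 2, a small secreted protein also known as neutrophil gelatinase-associated lipocalin, 24p3 or siderocalin. It is 1 gene of the 18193 named genes measured here, and 1 probe set carried its symbol alone in the table that pairs probe sets with genes. Lcn2 was selected on these data for a higher level in most tissues of tumor-bearing mice. Its changes between tumor-bearing and control mice and its correlations with other genes are therefore given as descriptions, without a test.

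Lipocalin 2 holds its ligand in a cup formed by a beta barrel, and the ligand is a siderophore, an iron carrier made by bacteria. By taking up siderophores it withholds iron from bacteria as part of innate immunity. Neutrophils store the protein in their secondary, or specific, granules, where part of it is bound to gelatinase B, and they make its messenger RNA while they mature in the marrow or the spleen. Epithelia and hepatocytes make it on demand: interleukin 1, interleukin 17, Toll-like receptor ligands and interleukin 6 act on its promoter through NF-kB with its partner I-kappa-B-zeta, through C/EBP factors and through STAT3. It is a known acute phase protein of the liver and a known product of mammary tumors.

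The mice were female FVB animals from a model of Her2/Neu breast cancer. Tumor-bearing mice were bitransgenic: the MMTV promoter, active mainly in mammary epithelium, drove the rtTA transactivator, which in the presence of doxycycline switches on the oncogene NeuNT from its TetO transgene. Control mice were littermates with the TetO-NeuNT transgene alone, so they carried 1 of the transgenes and drank doxycycline too. Doxycycline at 2 mg/mL with 5% sucrose was given to both groups in the drinking water from 8 weeks of age. Tissue was taken when the tumor measured 1 cm, at an age not stated in the labels. RNA of whole breast, liver, spleen, thymus and blood cells (blood freed of plasma) was measured on whole-genome mouse GeneChip arrays. Each of the 10 groups (5 tissues, tumor-bearing or control) held 25 arrays, and the labels named the age- and cage-matched control of each tumor-bearing mouse. The breast samples of tumor-bearing mice hold the tumor. In whole tissue, fewer cells of a type and less RNA per cell cannot be told apart.

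The 250 base pairs before the annotated start of Lcn2 (RefSeq, GRCm38.p6, chr2:32387740-32387989, minus strand) are shown because several of the regulators followed below are known to act in this stretch. The capitals mark matches to the searched motifs.
Lcn2 promoter: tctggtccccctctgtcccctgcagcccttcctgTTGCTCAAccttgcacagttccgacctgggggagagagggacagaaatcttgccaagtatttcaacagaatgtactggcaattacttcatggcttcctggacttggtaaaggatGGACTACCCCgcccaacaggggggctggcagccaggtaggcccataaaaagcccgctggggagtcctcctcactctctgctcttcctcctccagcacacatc
The first run of capitals, TTGCTCAA at positions -216 to -209 from the start, matched the C/EBP motif TTGCNNAA, which 9.56 percent of the 32851 listed promoters held in a window of the same length. The second run lay at -102 to -93 and matched the NF-kB motif GGGNNNNNCC on the opposite strand. That motif is short on information, and 45.8 percent of promoters held it. The STAT motif TTCNNNGAA (7.02 percent of promoters) and the letters TATAAA (12.4 percent) were not found in this window. All searches covered both strands, and a match is a description of letters and not a measured binding site. The window had a GC content of 56.4 percent, against a median of 52.4 percent over all promoters.

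Some arrays stood apart from their labels or groups, and they touch the values of Lcn2. In breast, the samples labelled tumor-bearing of pairs 1 and 9 had less Erbb2 signal than their controls (differences of -0.69 and -0.61 in log2). In spleen, the control arrays of pairs 15 and 20 and the tumor-bearing array of pair 15 had B cell genes (mean level over 5 genes) more than 2 log2 units below the spleen median, and the epithelial list lay at 9.04 to 9.69 in these 3 arrays against a median of 5.45 over all spleens of either group. In thymus, the control arrays of pairs 4 and 7 had T cell genes more than 2 log2 units below the thymus median, and in that of pair 7 the erythroid list lay at 11.90. Values without these pairs (23 pairs left in each of the 3 tissues) are given beside the main ones and are called values without the doubtful pairs. The rule for the doubtful pairs was set after the data were seen. In spleen and thymus it used marker genes of the tissue, and in breast the Erbb2 difference between tumor-bearing and control sample. A second, general rule left out each pair with an array that correlated poorly with its own group, and kept 22 pairs for breast, 21 for spleen, 20 for blood, 19 for liver and 14 for thymus. Array medians differed between tissues, so that levels are compared within a tissue only.

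Lcn2 was higher in tumor-bearing mice in all 5 tissues, by 28.4-fold in blood, 18-fold in liver, 5.53-fold in spleen, 3.47-fold in breast and 2.86-fold in thymus. It was higher in the tumor-bearing mouse in 25 of 25 pairs in liver, 24 in spleen, 24 in blood, 23 in breast and 22 in thymus. Among the 18193 genes its mean change ranked 2nd in blood, 4th in liver, 4th in thymus, 36th in spleen and 348th in breast. These values chose the gene and are not tested.

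In liver, the log2 level of Lcn2 had a minimum of 5.32, a median of 9.16 and a maximum of 10.44 in control mice, against 12.04, 13.27 and 13.79 in tumor-bearing mice. The groups did not overlap, and every tumor-bearing liver lay above every control liver. The mean change was 4.17 ± 0.21 (SE, n = 25). The lowest control, that of pair 9, stood apart from its group over the whole array (median correlation of 0.327 with the other control livers) and gave the largest change, 7.72. Without the pairs with outlying arrays, pair 9 among them, the change was 4.03 ± 0.12 (n = 19).

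In blood, the control levels had a minimum of 4.03, a median of 4.93 and a maximum of 11.36. The tumor-bearing levels had a minimum of 8.21, a median of 10.17 and a maximum of 12.50. All control samples but 1 lay below all tumor-bearing samples. The exception was the control of pair 21, with a change of -1.92, and the next highest control lay at 7.08. In that array the hepatocyte list lay at 9.82 and the B cell list at 9.24, against 5.33 and 6.51 in its tumor-bearing mate, and the part of this in the Lcn2 value was not tested. The mean change was 4.83 ± 0.40 (SE, n = 25) with pair 21 and 5.11 ± 0.30 (n = 24) without it.

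In spleen, control mice ranged from 7.47 to 12.02 with a median of 10.73, and tumor-bearing mice from 7.06 to 13.80 with a median of 13.03. The lowest tumor-bearing spleen was that of the doubtful pair 15. Without the doubtful pairs, controls reached 12.02 at most and tumor-bearing spleens began at 12.38, so that the groups did not overlap. The mean change was 2.47 ± 0.25 (SE, n = 25), and 2.46 ± 0.19 (n = 23) without them.

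Breast had high Lcn2 levels in both groups. Control breast ranged from 10.05 to 14 with a median of 12.00, and tumor-bearing breast from 11.53 to 14.12 with a median of 13.97. Both the highest control, in pair 1, and the lowest tumor-bearing sample, in pair 9, belonged to the doubtful pairs. Without these pairs the groups did not overlap (controls up to 13.41, tumor-bearing from 13.55) and the SD among tumor-bearing mice was 0.14, against 0.70 among controls. Pairs 1 and 9 were also the 2 breast pairs in which Lcn2 was lower in the tumor-bearing mouse. They were left out by a difference between the groups, so the separation without them is not independent of that choice. The mean change was 1.79 ± 0.19 (SE, n = 25), and 1.99 ± 0.14 (n = 23) without them.

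Thymus showed the smallest change and the most overlap. Control thymus ranged from 4.6 to 13.26 with a median of 7.51, and tumor-bearing thymus from 7.59 to 12.13 with a median of 8.91. The highest control was pair 7, a doubtful pair, in which the specific granule list also had its highest thymus value, 12.05. The mean change was 1.52 ± 0.33 (SE, n = 25), and 1.81 ± 0.28 (n = 23) without the doubtful pairs, when 22 of 23 pairs were higher.

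**Figure D1:**
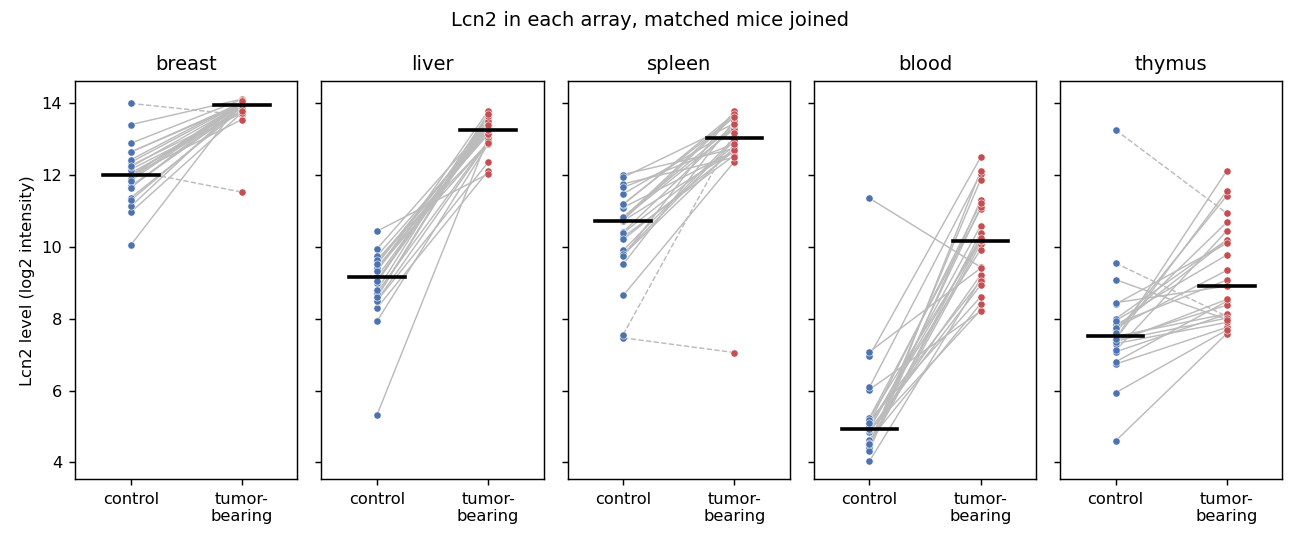
Lcn2 level (log2 intensity) of each array in the 5 tissues, with control mice in blue and tumor-bearing mice in red. Thin lines join matched mice, dashed where the pair holds an array away from its labels, and black bars are group medians. Liver groups are separate, and in blood 1 control at 11.36 lies among the tumor-bearing mice.

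Ranked within each array, Lcn2 had medians near the top of all probe sets in tumor-bearing breast, liver, spleen and blood, but not in thymus. Its median percentile in tumor-bearing mice was 99.95 in breast, followed by liver with 99.35, spleen with 99.17, blood with 97.77 and thymus with 70.2. In control mice the medians were 98.14 in breast, 91.02 in spleen, 87.67 in liver, 56.33 in blood and 56.17 in thymus. The ranges of neighbours in both orders overlapped. In tumor-bearing mice those of breast (97.3 or more), liver (97.9 to 99.7) and blood (91.3 to 99.4) overlapped, and in control mice those of blood (27.5 to 98.8) and thymus (1.08 to 99.3) did.

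The 25 pairs were followed across tissues by their sample numbers, an inference from the labels. The leading digits of the number were shared between tissues. Pairs with the same leading digits were matched by the order of their numbers alone, and no label states this link. In 18 of these linked pairs Lcn2 was higher in all 5 tissues, and in the other 7 it was higher in 4 tissues. Each of those 7 had 1 tissue in which the tumor-bearing mouse was lower, and 5 of these belonged to the doubtful pairs: breast in pairs 1 and 9, spleen in pair 15 and thymus in pairs 4 and 7. The others were the thymus of pair 20 and the blood of pair 21.

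Tissues were also compared within linked pairs, as a description. Within linked pairs, the change in liver minus that in blood was -0.66 ± 0.43 (SE, n = 25), and it was larger in liver in 9 of 25 pairs. That in liver minus that in spleen was 1.70 ± 0.36, larger in liver in 21 of 25 pairs. That in breast minus that in spleen was -0.68 ± 0.30, and that in breast minus that in thymus was 0.28 ± 0.40. The order of blood and liver, and that of breast and thymus, thus lay within the spread over pairs.

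**Figure D2:**
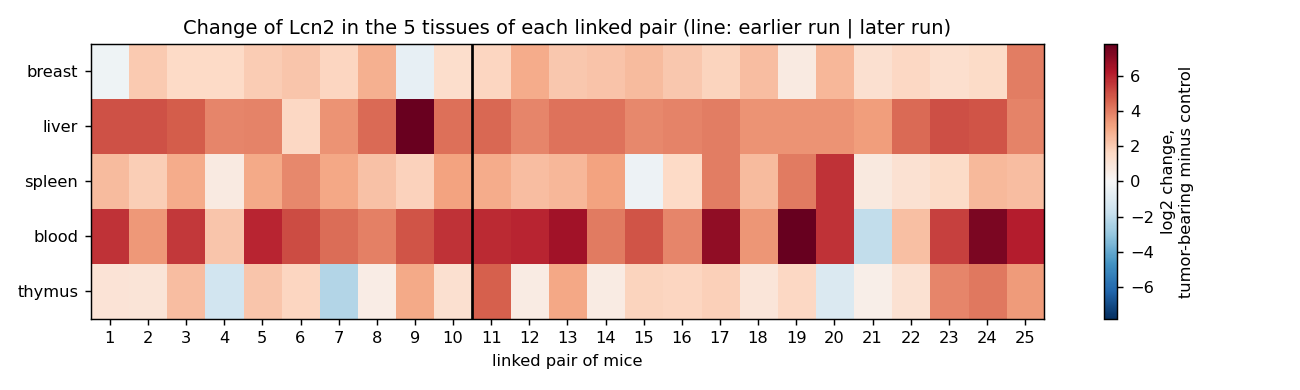
Change of Lcn2 (log2, tumor-bearing minus control) in each of the 25 linked pairs (columns) and 5 tissues (rows), with red for higher and blue for lower in the tumor-bearing mouse. The vertical line separates the earlier 10 pairs from the later 15 by sample number. Liver is red in every pair, and the darkest liver cell is pair 9 at 7.72.

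The earlier and later runs of sample numbers did not differ detectably in the change of Lcn2. The later run minus the earlier run was 0.97 in thymus, 0.61 in breast, 0.27 in blood, -0.04 in spleen and -0.35 in liver (permutation test, 100000 resamples, two-sided, adjusted p between 0.396 and 0.937 over 5 tissues). In thymus the mean was 0.94 ± 1.67 (SD, n = 10) in the earlier run and 1.91 ± 1.59 (SD, n = 15) in the later one.

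Whether mice with a large change in one tissue also had a large change in another was asked over the 10 pairs of tissues. Spleen and blood had the highest correlation of changes, with Pearson r = 0.55 (permutation p = 0.00583, adjusted 0.0543) and Spearman rho = 0.60 (permutation p = 0.00202, adjusted 0.0161). It was 0.76 within the earlier and 0.51 within the later run, and 0.72 without the 2 pairs farthest from the median change in spleen, which are the doubtful ones, and 0.43 without the 2 farthest in blood. Blood and thymus had r = 0.44 (permutation p = 0.0298, adjusted 0.0993) and rho = 0.58 (adjusted permutation p = 0.0161), with 0.62 and 0.41 within runs and 0.39 or 0.48 without the 2 pairs farthest from the median in blood or in thymus. So for both pairs of tissues the rank correlation passed the threshold and the linear one did not.

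Liver and thymus had r = 0.36 (permutation p = 0.0764, adjusted 0.191) and rho = 0.50 (adjusted permutation p = 0.0390), with 0.39 and 0.71 within runs and 0.51 or 0.36 without the 2 pairs farthest from the median in liver or in thymus. Breast and liver had r = -0.53 (permutation p = 0.0109, adjusted 0.0543) and rho = -0.36 (adjusted permutation p = 0.188). The breast and liver value rested on few pairs: it was -0.29 without pairs 9 and 25, and -0.68 within the earlier but -0.20 within the later run. The remaining 6 pairs of tissues had r between -0.23 and 0.12.

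In control mice no pair of tissues passed (adjusted permutation p of 0.187 or more for r, 0.0613 or more for rho). The control values for spleen and blood were r = 0.40 and rho = 0.52. Liver and thymus controls had r = 0.47, which became 0.20 without the 2 control livers farthest from the median and 0.79 without the doubtful pairs, so that value depended on single arrays.

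In tumor-bearing mice, by contrast, the Lcn2 levels of liver, spleen and blood went together. This family of 10 correlations was added after the values were seen. Liver and blood had r = 0.74 (permutation p = 2e-05, adjusted 0.000200) and rho = 0.78 (adjusted permutation p = 7e-05), with 0.77 in the earlier and 0.71 in the later run and 0.75 or 0.68 without the 2 farthest livers or blood samples. Liver and spleen had r = 0.25 (adjusted permutation p = 0.278) and rho = 0.82 (adjusted permutation p = 7e-05), and spleen and blood had r = 0.32 (adjusted permutation p = 0.218) and rho = 0.83 (adjusted permutation p = 7e-05). The low Pearson values came with the tumor-bearing spleen of pair 15: without the doubtful pairs r was 0.78 for liver and spleen and 0.87 for spleen and blood. Within the earlier run, which does not hold that spleen, r was 0.82 and 0.86, and within the later run, which does, 0.26 and 0.31.

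Thymus followed the same order less closely, with r = 0.55 and rho = 0.57 against blood (adjusted permutation p = 0.0248 and 0.00788, 0.45 and 0.62 within runs, 0.52 or 0.49 without the 2 farthest blood or thymus samples). Its rho was 0.53 against liver and 0.56 against spleen (adjusted permutation p = 0.0120 and 0.00788), while r was 0.42 and 0.40 (both adjusted permutation p = 0.0980). In the earlier run these r values were 0.10 and 0.13, and in the later run 0.67 and 0.49. The breast level had r between -0.02 and 0.27 with the other 4 tissues (adjusted permutation p of 0.278 or more). Without outlying arrays breast with liver passed, at r = 0.60 (adjusted permutation p = 0.0227, n = 17). The difference between the correlations of control and of tumor-bearing mice was not tested.

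**Figure D3:**
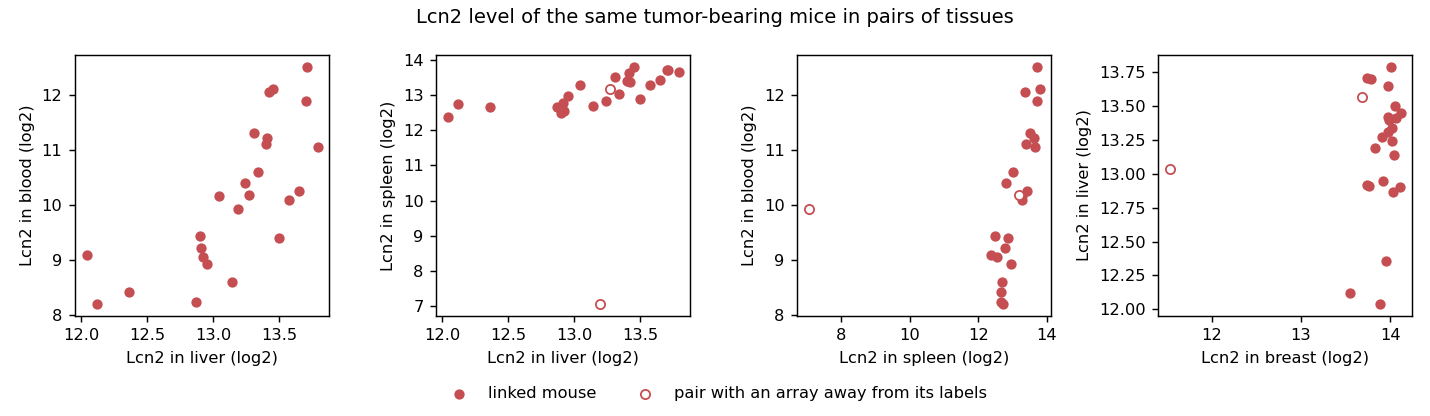
Lcn2 level (log2 intensity) of linked tumor-bearing mice in pairs of tissues, 1 point per linked mouse, with open circles for pairs that hold an array away from its labels. Levels in liver, spleen and blood rise together (rho of 0.78 for liver with blood), apart from the spleen at 7.06, and breast levels are crowded near 14.

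Genes that neutrophils use were then set beside Lcn2, beginning with the specific granule that holds lipocalin 2. The list of 11 such genes leaves out Lcn2 itself. In liver 11 of 11 rose and none fell, where 7.89 percent of all genes rose and 2.28 percent fell (limma, adjusted p under 0.05). In spleen 10 of 11 rose (all but Cybb, a subunit of the phagocyte oxidase, at 0.39 ± 0.17, which passed at 0.20 without the doubtful pairs), with 22.4 percent of all genes rising and 18.3 percent falling, and in blood 10 of 11 rose (again all but Cybb), with 8.66 percent rising and 4.27 percent falling. In breast 6 of 11 rose and 1, Olfm4, fell, with 30.0 percent rising and 32.3 percent falling. In thymus none passed, against 0.0110 percent of genes rising and 0 percent falling. The median change of the list was 3.06 in blood, 2.44 in spleen, 1.52 in liver, 0.82 in thymus and 0.57 in breast, while the median over all genes lay between -0.03 and 0.01.

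The share of calls that rose depended on the scaling in blood and on the arrays used in blood and liver. In blood it was 67.0 percent as deposited, 55.7 percent after quantile normalization and 77.0 percent after median centring. Without outlying arrays it was 44.7 percent in blood, and it was 95.6 percent in the earlier and 52.8 percent in the later run. In liver it was 77.6 percent, against 48.3 percent without outlying arrays (3224 genes rose and 3447 fell), 89.5 percent in the earlier and 51.0 percent in the later run. Only 2 genes were called in thymus, S100a8 and S100a9. No gene fell there by limma at the adjusted threshold, and 204 were lower and 553 higher at an unadjusted p under 0.05.

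Ltf encodes lactoferrin, the iron-binding protein stored in the same granules as lipocalin 2. In blood its log2 level had a minimum of 4.87, a median of 5.72 and a maximum of 7.57 in control mice, against 7.68, 9.95 and 12.73 in tumor-bearing mice, with no overlap. Ltf rose by 4.32 ± 0.34 (SE, n = 25, limma adjusted p = 6.15e-10). It rose by 2.95 ± 0.26 in spleen (adjusted p = 1.64e-09) and by 3.0 ± 0.28 in liver (adjusted p = 6.63e-09), each time in 25 of 25 pairs. In breast, where mammary epithelium is a known source of lactoferrin in milk, it rose by 0.99 ± 0.29 in 19 of 25 pairs (adjusted p = 0.00494).

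Ngp, neutrophilic granule protein, had changes close to those of Lcn2 in liver, blood and thymus and smaller ones in spleen and breast. In liver its controls had a minimum of 5.15, a median of 5.95 and a maximum of 7.29, and tumor-bearing mice 7.10, 9.71 and 12.90, so that the groups barely overlapped. It rose by 4.01 ± 0.26 in liver and 4.89 ± 0.33 in blood (limma adjusted p = 5.28e-12 and 6.86e-11), in 25 of 25 pairs of each. It rose by 1.74 ± 0.21 in spleen, where its control median was already 12.22 and its tumor-bearing median 13.96 (adjusted p = 2.36e-07). In thymus its change was 1.62 ± 0.35 in 23 of 25 pairs, which did not pass (adjusted p = 0.255), and in breast it was 0.57 ± 0.27 (adjusted p = 0.0708). Both passed without the doubtful pairs, at 1.82 and 0.73 (adjusted p = 0.00327 and 0.0180).

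Camp, the precursor of the cathelicidin peptide, rose by 3.77 ± 0.29 in blood, 2.77 ± 0.28 in liver and 2.16 ± 0.25 in spleen (limma adjusted p = 4.22e-10, 2.26e-08 and 1.21e-07). In breast its change was 0.18 ± 0.17 (adjusted p = 0.375). Mmp9, gelatinase B, which binds lipocalin 2, rose by 3.06 ± 0.24 in blood, 3.01 ± 0.21 in spleen and 0.68 ± 0.10 in liver (adjusted p = 5.93e-10, 3.12e-11 and 1.59e-05). In breast the change of Mmp9 was -0.26 ± 0.17 (adjusted p = 0.178). Pglyrp1, a peptidoglycan-binding granule protein, was the listed granule gene with the largest change in breast, 3.86 ± 0.24 in 24 of 25 pairs (adjusted p = 1.23e-11).

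Genes of the primary granule, which is filled at the promyelocyte stage, before Lcn2 is switched on, set blood apart from spleen and liver. All 5 measured genes rose in spleen and in liver, whereas in blood none did (Prtn3 rose and Elane fell in breast, and none passed in thymus). Over all genes 22.4 percent rose in spleen, 7.89 percent in liver and 8.66 percent in blood, and in breast 30.0 percent rose and 32.3 percent fell. The falls of Olfm4 and Elane in breast were calls on dim genes and ended when intensities under 50 were raised to 50. Mpo, myeloperoxidase, had a blood median of 3.91 in control and 4.01 in tumor-bearing mice, near the lowest values of the array, and a change of 0.06 ± 0.07 (limma adjusted p = 0.661). In spleen Mpo medians were 10.20 and 13.07, and it rose by 2.80 ± 0.29 (adjusted p = 1.43e-08). Elane, neutrophil elastase, and Ctsg, cathepsin G, rose by 2.86 ± 0.26 and 3.44 ± 0.28 in spleen (adjusted p = 2.08e-09 and 5.00e-10), and by 1.58 ± 0.19 and 1.53 ± 0.26 in liver (adjusted p = 9.63e-07 and 9.95e-05).

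Prtn3, proteinase 3, had the largest change of the primary granule genes in liver. Its control livers had a minimum of 4.62, a median of 5.29 and a maximum of 5.93, and its tumor-bearing livers 8.73, 11.31 and 12.11. The groups were wide apart, and Prtn3 rose by 5.75 ± 0.12 (SE, n = 25, limma adjusted p = 1.78e-23), a larger change than that of Lcn2 in the same livers.

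Genes of the neutrophil surface and cytosol moved in the same tissues. Of 8 measured, 8 rose in spleen, 7 in blood, 6 in liver, 5 in breast (with 1 falling) and 2 in thymus. Over all genes 22.4 percent rose in spleen, 8.66 percent in blood, 7.89 percent in liver and 0.0110 percent in thymus. In breast 30.0 percent rose and 32.3 percent fell. The listed gene that fell in breast was Il1r2, the decoy receptor for interleukin 1. S100a8 and S100a9 encode the subunits of calprotectin, the most abundant cytosolic protein of neutrophils. In liver S100a8 had control values with a median of 6.41 and a maximum of 7.83 and tumor-bearing values with a minimum of 8.65 and a median of 11.58, and it rose by 5.25 ± 0.23 (limma adjusted p = 7.63e-16). S100a9 rose by 5.03 ± 0.20 there (adjusted p = 8.86e-17).

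In thymus S100a8 rose by 1.88 ± 0.31 and S100a9 by 2.21 ± 0.37 (limma, both adjusted p = 0.0191), with overlapping groups: control S100a8 ran from 5.63 to 14.21 and tumor-bearing S100a8 from 10.05 to 13.93. Neither call held when intensities under 50 were raised to 50 or when the pairs on a second plate were left out, where 0 genes were called in thymus. Without the doubtful pairs 18 genes were called in thymus, all of them rising, and 3 of 11 specific granule genes and 3 of 8 surface and cytosol genes were among them.

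These lists were chosen as markers of neutrophils as a cell type. In breast they mark these cells less surely, because mammary epithelium is a known source of Ltf. The mean level over the 11 specific granule genes ran from 5.12 to 7.36 in control and from 7.95 to 11.47 in tumor-bearing blood, and from 4.87 to 5.81 and from 5.43 to 9.11 in liver. In spleen the ranges were 6.66 to 10.75 and 8.01 to 13.03, in thymus 6.83 to 12.05 and 7.39 to 11.02, and in breast 5.93 to 7.73 and 6.29 to 8.09. None of the 11 genes had its median at the floor in any tissue. The part of neutrophil number in the change of Lcn2 was not tested.

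**Figure D4:**
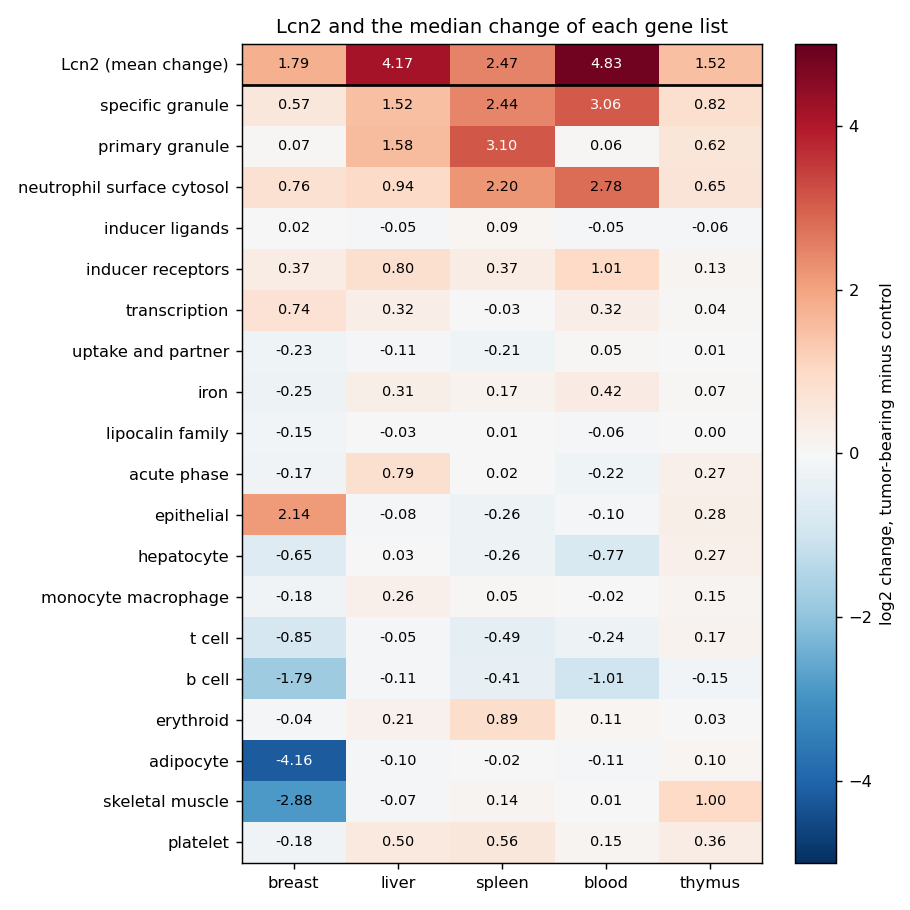
Mean change of Lcn2 (top row) and median change of each gene list (log2, tumor-bearing minus control) in the 5 tissues, with red for higher and blue for lower in tumor-bearing mice. Lcn2 is 4.17 in liver against 1.52 for specific granule genes there, and 2.47 in spleen against 2.44.

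The size of the change of Lcn2 relative to the granule genes differed from tissue to tissue. In spleen the change of Lcn2 minus the mean change of the 11 specific granule genes was 0.05 ± 0.10 (SE, n = 25), and Lcn2 was the larger in 14 of 25 pairs. In liver that difference was 2.31 ± 0.27, and Lcn2 was the larger in 24 of 25 pairs. It was 1.80 ± 0.24 in blood, 0.95 ± 0.16 in breast and 0.78 ± 0.24 in thymus. In breast Lcn2 changed by about as much as the 11 epithelial genes, with a difference of -0.08 ± 0.11.

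Across pairs, the lists whose change went with that of Lcn2 also differed between tissues. These are descriptions over 25 pairs that share arrays, without a test. In spleen the change of Lcn2 had r = 0.91 with the specific and 0.96 with the primary granule list, and 0.91 and 0.93 without outlying arrays (n = 21). In blood it had r = 0.81 with the specific granule list (0.95 without outlying arrays, n = 20) and -0.34 with the primary granule list (-0.02 without). In thymus the values were 0.71 and 0.77 (0.87 and 0.85 without, n = 14). In these 3 tissues Lcn2 thus went with specific granule genes, and in blood not with primary granule genes.

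In liver the change of Lcn2 had r = 0.09 with the specific granule list and 0.88 with the acute phase list (0.04 and 0.75 without outlying arrays, n = 19). It also had 0.88 with the inducer receptors, 0.85 with the other lipocalins, 0.81 with the transcription factors and 0.80 with the iron genes, which became 0.67, 0.64, 0.46 and 0.36. Its correlations with the hepatocyte list (0.79) and the T cell list (-0.73) dropped to 0.17 and 0.14 without outlying arrays. Among tumor-bearing livers alone, the level of Lcn2 had r = 0.74 with the specific granule list and 0.90 with the acute phase list (0.69 and 0.90 without outlying arrays). In control livers the values were -0.21 and 0.87 (0.27 and 0.77 without). The acute phase list was thus close to Lcn2 in both groups of livers, and the granule list in tumor-bearing livers.

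In breast the change of Lcn2 had r = 0.82 with the epithelial list (0.42 without outlying arrays, n = 22, and 0.60 without the doubtful pairs, n = 23). With the specific granule list it had 0.54, which became 0.13 and 0.17. Both values thus shrank without those pairs. The iron list had 0.49 over all pairs, 0.53 without outlying arrays and 0.76 without the doubtful pairs, and the inducer receptors had 0.62, 0.38 and 0.68. Epithelial genes therefore did not lead for the change once those pairs were left out. By level the groups differed. Without the doubtful pairs, Lcn2 had r = 0.65 with the iron list in control breast and -0.19 in tumor-bearing breast. With the inducer receptors it had 0.57 and -0.60, and with the epithelial list 0.64 and 0.48. The highest value of any list in control breast without those pairs was that of the adipocyte list, 0.82, against -0.58 in tumor-bearing breast. Without outlying arrays the adipocyte values were 0.71 and -0.62, and over all pairs 0.06 and -0.63. For the change, the adipocyte list had -0.19 over all pairs, 0.42 without outlying arrays and 0.50 without the doubtful pairs. The part of fat tissue in these values was not tested.

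**Figure D5:**
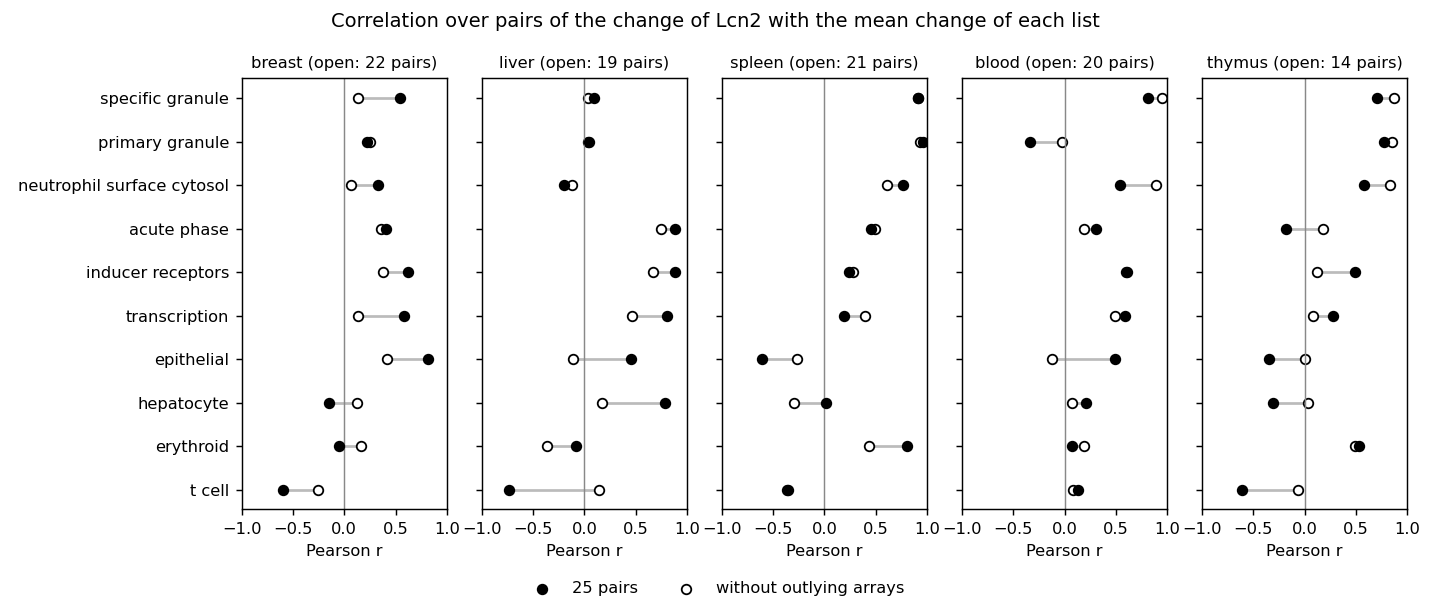
Pearson correlation over pairs between the change of Lcn2 and the mean change of each gene list, for all 25 pairs (filled) and without pairs that hold an outlying array (open). In liver the acute phase list lies at 0.88 and the specific granule list at 0.09, and in spleen the specific granule list lies at 0.91.

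The signals that switch Lcn2 on were followed next. Among 9 measured ligands, 4 rose and 2 fell in breast, 3 rose in spleen, 2 in liver, 2 in blood and none in thymus. Over all genes 30.0 percent rose and 32.3 percent fell in breast and 22.4 percent rose in spleen, so these counts say little about the list in those tissues. The share of all genes that rose was 7.89 percent in liver and 8.66 percent in blood. Il1b, which encodes interleukin 1 beta, a main inducer of Lcn2, passed in 4 tissues. In blood its control values had a minimum of 5.84, a median of 9.61 and a maximum of 10.42, and the tumor-bearing ones 11.06, 11.89 and 14.18, so that the groups did not overlap. Il1b rose by 2.75 ± 0.25 in blood, 2.19 ± 0.15 in spleen, 2.15 ± 0.20 in breast and 0.89 ± 0.15 in liver (limma adjusted p = 6.04e-09, 2.08e-11, 8.92e-10 and 6.93e-05). Osm, oncostatin M, was the other ligand that rose in blood, and Il1a, interleukin 1 alpha, the other one in liver.

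Of the 11 receptors and adaptors through which these ligands act, 9 rose in liver, 7 in spleen (1 fell), 7 in blood, 6 in breast (3 fell) and none in thymus. Over all genes 7.89 percent rose in liver, 22.4 percent in spleen, 8.66 percent in blood and 30.0 percent in breast. The share that fell was 18.3 percent in spleen and 32.3 percent in breast, near the share of receptors that fell in breast. Cd14, the lipopolysaccharide co-receptor, rose in 4 tissues, by 1.85 ± 0.19 in breast, 1.14 ± 0.22 in blood (not within the later run alone), 1.02 ± 0.19 in liver and 1.02 ± 0.08 in spleen (limma adjusted p = 4.11e-09, 0.000584, 0.000341 and 3.96e-10). Osmr, the receptor for oncostatin M, rose by 1.96 ± 0.13 in liver and 1.28 ± 0.14 in breast (adjusted p = 1.23e-11 and 1.54e-08). Il1r1, the signalling receptor for interleukin 1, rose by 1.43 ± 0.16 in liver (adjusted p = 1.69e-07). Il6st, the chain through which interleukin 6 signals, went in opposite directions: it rose by 1.03 ± 0.22 in liver (adjusted p = 0.00176) and changed by -0.79 ± 0.10 in breast (adjusted p = 2.48e-07).

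Among 13 measured transcription factors and regulators of the Lcn2 promoter, 8 rose and 1 fell in breast, 7 rose in blood, 5 in liver and 3 in spleen (2 fell), and none passed in thymus. Over all genes 30.0 percent rose and 32.3 percent fell in breast, 8.66 percent rose in blood and 7.89 percent in liver. The spleen counts lie near the background there, where 22.4 percent of all genes rose and 18.3 percent fell. Socs3, the feedback inhibitor that STAT3 switches on, had the largest change of these in liver. Control livers had a Socs3 minimum of 5.87, a median of 7.96 and a maximum of 8.78, against 9.60, 10.90 and 11.59 in tumor-bearing livers, with no overlap. It rose by 3.02 ± 0.18 in liver, 2.70 ± 0.22 in blood, 1.45 ± 0.12 in spleen and 1.07 ± 0.14 in breast (limma adjusted p = 3.75e-13, 1.58e-09, 6.21e-10 and 2.02e-07).

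Stat3 itself rose by 1.23 ± 0.20 in liver, 1.10 ± 0.19 in blood and 1.09 ± 0.13 in breast, and in spleen it had a change of -0.03 ± 0.05 (limma adjusted p = 4.92e-05, 0.000109, 6.72e-08 and 0.623). Cebpd, a C/EBP factor of the acute phase, rose by 2.83 ± 0.21 in blood, 1.43 ± 0.11 in spleen, 1.36 ± 0.11 in liver and 1.13 ± 0.13 in breast (adjusted p = 2.85e-10, 1.70e-10, 5.19e-10 and 2.43e-08). Cebpa, its relative in fat and liver, fell in breast by 2.38 ± 0.20 on the log2 scale, in 24 of 25 pairs (adjusted p = 2.05e-10). Adipocyte genes fell there too, 6 of 6, with a median of -4.16, and their part in the change of Cebpa was not tested.

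Nfkbiz, which encodes I-kappa-B-zeta, the NF-kB partner needed for Lcn2 induction, rose by 0.77 ± 0.09 in breast and 0.80 ± 0.18 in liver (limma adjusted p = 3.00e-08 and 0.00206). In spleen its change was -0.16 ± 0.09 (adjusted p = 0.170), and without the doubtful pairs it fell there, by 0.28 on the log2 scale (adjusted p = 1.65e-06). Of the 13 regulators 4 rose and 6 fell in spleen without those pairs, where 5370 of all 18193 genes rose and 4847 fell.

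The acute phase list was led by liver, the main site of these plasma proteins: 13 of 19 measured genes rose there and none fell, with a median of 0.79. In breast 6 rose and 4 fell, in spleen 6 rose and 1 fell, in blood 3 rose, and in thymus none passed. The breast counts lie near the background of 30.0 and 32.3 percent. Over all genes 7.89 percent rose in liver, 22.4 percent in spleen and 8.66 percent in blood, and 18.3 percent fell in spleen. Saa1 and Saa2 encode serum amyloid A. Control livers had Saa2 levels with a minimum of 7.20, a median of 9.52 and a maximum of 12.07, and tumor-bearing livers 10.87, 13.19 and 14.15, with little overlap. Saa2 rose by 3.54 ± 0.23 and Saa1 by 2.98 ± 0.21 (limma adjusted p = 4.27e-12 and 1.83e-11), both in 25 of 25 pairs. The change of Lcn2 in liver, 4.17, was larger than that of each of the 19 acute phase genes.

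Lbp, the lipopolysaccharide-binding protein, rose by 2.68 ± 0.23 in breast, 1.63 ± 0.15 in spleen and 1.41 ± 0.19 in liver (limma adjusted p = 1.96e-10, 2.23e-09 and 4.30e-06). In breast its control median was 9.49 and its tumor-bearing median 12.34, with overlapping groups (up to 12.16 in controls and down to 8.96 in tumor-bearing samples). Saa3, the serum amyloid A form made outside the liver, rose in breast by 2.76 ± 0.27 and in spleen by 1.79 ± 0.28 (adjusted p = 1.50e-09 and 8.58e-06).

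Epithelial genes were counted because mammary epithelium is a source of Lcn2 and the origin of these tumors. In breast 10 of 11 rose and none fell, with a median of 2.14, where 30.0 percent of all genes rose and 32.3 percent fell. The mean level of the 11 epithelial genes ran from 8.29 to 11.43 in control and from 9.96 to 11.88 in tumor-bearing breast. Epcam, an epithelial adhesion molecule, had a control median of 11.13 and a tumor-bearing median of 13.32 and rose by 2.19 ± 0.18 in 23 of 25 pairs (limma adjusted p = 1.15e-10). Cldn7, a tight junction protein, rose by 3.01 ± 0.25 and Krt8, a keratin of simple epithelia, by 1.59 ± 0.15 (adjusted p = 1.58e-10 and 1.32e-09). Skeletal muscle genes fell, 6 of 6, with a median of -2.88. The part of tissue composition in the change of Lcn2 was not tested.

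The ratio of the 3 prime to the 5 prime Gapdh control probes, on a log scale, is a sign of RNA quality. It was 0.79 in control and 0.03 in tumor-bearing breast, a change of -0.76 ± 0.17 (SE, n = 25). In the other tissues the ratio changed by -0.05 to 0.12. Its change had r = -0.31 with that of Lcn2 in breast and -0.74 in liver. Its part in these results was not tested.

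The genes of lipocalin 2 uptake showed smaller changes than Lcn2. Slc22a17, which encodes its cell-surface receptor, had medians of 7.93 in control and 8.24 in tumor-bearing breast and rose there by 0.32 ± 0.10 in 17 of 25 pairs (limma adjusted p = 0.00843), a call lost after quantile normalization. In spleen its change was -0.26 ± 0.11 (adjusted p = 0.0538), which passed at -0.12 without the doubtful pairs (adjusted p = 0.0428). Of the 4 measured uptake and partner genes, Mmp9 was the one that rose in liver, spleen and blood. Bdh2, an enzyme proposed to make a mammalian siderophore, fell in liver by 0.72 ± 0.21 on the log2 scale, in 24 of 25 pairs (adjusted p = 0.0228). That call was lost when the 4 pairs on a second plate were left out. Bdh2 and Lrp2, the endocytic receptor megalin, fell in breast, calls that also ended with that higher floor, and none of the 4 passed in thymus.

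Genes of iron handling were followed because lipocalin 2 carries iron through siderophores. Of 12 measured, 7 rose in blood, 6 in spleen (1 fell), 4 in breast (5 fell), 3 in liver (1 fell) and none in thymus. The breast counts lie near the background of 30.0 percent rising and 32.3 percent falling. Over all genes 8.66 percent rose in blood, 22.4 percent rose and 18.3 percent fell in spleen, and 7.89 percent rose and 2.28 percent fell in liver. Haptoglobin, hemopexin and ceruloplasmin are counted here and among the acute phase genes. Steap4, a metalloreductase, had blood values with a maximum of 6.33 in controls and a minimum of 8.06 in tumor-bearing mice, and it rose there by 4.77 ± 0.25 (limma adjusted p = 6.23e-13), about as much as Lcn2. It rose by 2.49 ± 0.15 in spleen and 1.52 ± 0.20 in liver (adjusted p = 6.63e-12 and 2.86e-06), and in breast it fell by 1.80 ± 0.21 (adjusted p = 3.37e-08). Slc40a1, the iron exporter ferroportin, rose by 2.83 ± 0.23 in blood (adjusted p = 8.96e-10). Hamp, hepcidin, the liver hormone that closes ferroportin, fell in liver by 1.15 ± 0.31 in 23 of 25 pairs (adjusted p = 0.0119).

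The other lipocalins, which share the fold of lipocalin 2, were counted next. Of 20 measured members, none rose and 9 fell in breast, 2 rose and 1 fell in liver, 3 rose in spleen, and none passed in blood or thymus, with medians between -0.15 and 0.01. Over all genes 30.0 percent rose and 32.3 percent fell in breast, 7.89 percent rose and 2.28 percent fell in liver, and 22.4 percent rose in spleen. The liver and spleen counts lie near these shares. The lipocalins that rose in liver were the orosomucoids Orm2, by 3.17 ± 0.21, and Orm3, by 1.95 ± 0.23 (limma adjusted p = 9.96e-12 and 6.46e-07), and Mup5 fell. Orm2 is also an acute phase gene and is counted in both lists. Control livers had Orm2 levels from 8.56 to 11.43 and tumor-bearing livers from 11.49 to 14.10, with no overlap. Rbp4, the retinol-binding lipocalin of liver and fat, fell in breast by 4.55 ± 0.42 in 24 of 25 pairs (adjusted p = 6.88e-10). Adipocyte genes fell there by a median of similar size, -4.16, and their part in the falls of Rbp4 and the other 8 lipocalins was not tested. Across liver pairs the mean change of the 20 lipocalins had r = 0.85 with that of Lcn2, 0.64 without outlying arrays.

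Genes most like Lcn2 were ranked by the correlation of their change with its change over 25 pairs, without a test. In spleen the closest were Ngp (r = 0.99), Camp (0.98), Chil3 (0.97), Mpo (0.97) and Wfdc21 (0.96), and these stayed at 0.93 or more without outlying arrays. In blood they were Ceacam10 (0.89), Ltf (0.89), Ngp (0.86), Tmem154 (0.85) and Camp (0.85), and without outlying arrays Stfa2l1, a neutrophil stefin, came first at 0.93. Ltf, Ngp and Camp, of the specific granule list, were thus among the 5 closest in blood.

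In thymus the closest were Slfn4 (0.85), Wfdc21 (0.81), Ifitm6 (0.79), Mmp8, neutrophil collagenase (0.79), and Mpo (0.78). In breast they were Col9a1, a collagen chain (0.94), Csn3, the milk protein kappa-casein (0.93), Ecrg4 (0.91), Cp, ceruloplasmin (0.91), and Tm4sf1 (0.90), which stayed between 0.65 and 0.90 without outlying arrays. No granule gene was among the 5 closest in breast.

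In liver the closest were Pros1, the anticoagulant protein S (0.90), Snx5, Ssb, Fxyd5 and Saa1 (each 0.89). Without outlying arrays Saa1 kept 0.77 and the other 4 had values between 0.41 and 0.59, so that those 4 rested on the arrays left out. Over all 5 tissues and 16435 ranked genes, the highest mean correlation was that of Ifitm2, an interferon-induced membrane protein (0.70), followed by Wfdc21 (0.69) and Anxa1, annexin A1 (0.67). Lbp was also among the 10 closest, with a mean of 0.64.

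By level in control mice, the closest genes were in spleen Ltf (r = 0.99), Cd177, Ctsg, Mpo and Ngp (each 0.98), and in breast Csn3 (0.92). In control livers Gngt2 and Saa1 led with 0.90, and Saa1 kept 0.81 without outlying arrays. The leading genes of control blood (Grhl1, 0.88) and control thymus (Serpinb1a, 0.90) dropped to 0.63 and 0.49 without outlying arrays. Without these arrays Ngp came first in control blood, at 0.85 (n = 20). The changes are taken against these same control arrays, so the rankings by level and by change are not independent.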

How the data were processed

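RNA of 250 samples (5 tissues, 10 groups of 25) was measured on 1 array each. The values used are the series matrix intensities that the authors deposited, on a linear scale from 5.17 to 47198. How they were summarised and normalized is not given in the sources used here. Array medians differed between tissues (median 25.2 in blood, 129 in thymus), so each tissue was analysed on its own.

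Intensities below the 5th percentile (11.3) were set to that value before log2 values were computed. Of 45101 probe sets, 34945 had 1 gene symbol in the platform annotation, 932 several, 9211 none, and 64 were controls. Symbols were updated through Entrez numbers in 34741 cases and kept in 204. The probe set with the highest mean stood for each of 18193 genes. Each tissue was fitted with limma 3.58.1 (R 4.3.3), matched pair as a block, with Benjamini-Hochberg adjustment over all genes and calls at 0.05. The fits were tested on simulated data. Pairs come from the labels, which name each mouse's age- and cage-matched mate. The median correlation of matched deviations was highest in liver (0.31), then thymus (0.25), blood (0.22), spleen (0.15) and breast (0.08), against -0.02 to 0.01 for other pairs. The p-values measure the spread between these samples as labelled, and the number of arrays limits the precision.

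Mice were linked across tissues by the leading digits of their sample numbers and, where several pairs shared these, by the order of the numbers. Correlations between tissues used 100000 permutations, so that 1e-05 is the smallest p they can give, run in Python (version 3.11.15; scipy 1.17.1, pandas 2.3.3, numpy 2.4.6). An array was outlying when its median correlation with its group lay over 5 median absolute deviations below the group's. Named genes were those of the 19 lists (166 of 194 genes measured), those past the test in the most tissues first, and the 5 genes per tissue and the 10 over all tissues most correlated with Lcn2. The gene, the lists and the tests were chosen with earlier results of these data known. Alternatives changed the floor, the scaling, the probe set rule, the pairing and the arrays used. Sequences and gene names are from RefSeq tables (GRCm38.p6). No genome or protein sequence was used here.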

Additional observations from a re-analysis of the deposited data

Results flagged for a closer look

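Orm1, orosomucoid 1, an acute phase lipocalin like its neighbour in these lists Orm2, went opposite ways in different tissues of the same mice. In spleen its change was 2.38 ± 0.19 (SE, n = 25), higher in the tumor-bearing mouse in 25 of 25 pairs. Control spleens ran from 4.59 to 7.61 and tumor-bearing spleens from 6.46 to 9.82. In breast its change was -4.69 ± 0.38, higher in 0 of 25 pairs, with controls from 8.33 to 11.57 and tumor-bearing samples from 3.81 to 9.47. Listed genes were flagged when every pair was higher in a tissue and none was in another. The opposite changes of Orm1 in spleen and breast thus restate that rule, and the difference between the tissues was not tested. Adipocyte genes fell in breast as well (6 of 6, median -4.16), and their part in the value of Orm1 was not tested.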

How the results depend on the processing

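Lcn2 stayed higher in tumor-bearing mice in all 5 tissues under every alternative run, with mean changes of 1.43 to 2.04 in breast, 4.03 to 4.38 in liver, 2.44 to 2.52 in spleen, 4.12 to 5.11 in blood and 0.94 to 1.91 in thymus. Leaving out the replicate block cannot move the means of complete pairs, which stayed at 1.79, 4.17, 2.47, 4.83 and 1.52. The SE went from 0.25 to 0.35 in spleen and from 0.33 to 0.41 in thymus. It stayed at 0.19 in breast and 0.21 in liver and was 0.39 in blood, against 0.40 with the block. No named gene changed its call without the block. Of 1986 alternatives for 179 named gene values, 1905 kept direction and call, 60 lost the call, 20 gained it, and 1 lost its sign (Elane in breast, 0.00 with a floor of 50).

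The number of genes called in breast was 11329, and 7053 in the earlier run and 6931 without genes under the median level. In liver it was 1851, and 6671 without outlying arrays, 95 in the earlier run, 4329 in the later run and 1178 without dim genes. In spleen it was 7408, and 4759 in the later run. In blood it was 2351, and 4389 without outlying arrays and 317 in the earlier run. In thymus it was 2, and 0 with a floor of 50, in the earlier run or on the main plate, 32 without outlying arrays, 12 in the later run, 4 without dim genes and 18 without the doubtful pairs. A single run holds fewer pairs. Otherwise the cause was not tested.

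Correlations between tissues that changed sides of the threshold were, for changes, breast with liver -0.59 and spleen with blood 0.54 after quantile normalization, liver with thymus 0.71 in the later run, spleen with blood 0.72 without the doubtful pairs, and the rank correlations 0.50 (liver with thymus), 0.60 (spleen with blood) and 0.58 (blood with thymus). For control levels it was liver with thymus, 0.79 without the doubtful pairs. For tumor-bearing levels these were liver with thymus 0.54 after quantile normalization. Without outlying arrays they were breast with liver 0.60, liver with spleen 0.65, spleen with blood 0.84 and spleen with thymus 0.77. In the earlier run they were liver with spleen 0.82, spleen with blood 0.86 and blood with thymus 0.45, and in the later run liver with thymus 0.67. Without the doubtful pairs they were liver with spleen 0.78, spleen with blood 0.87 and spleen with thymus 0.61. By rank they were 0.82 for liver with spleen, 0.53 for liver with thymus, 0.83 for spleen with blood and 0.56 for spleen with thymus. Dim probe sets, such as Lcn2 in control blood, limit what a fold change can show.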
